A study of Mus musculus with 143 samples.

Results

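A list of 10 genes of messenger RNA dormancy in the oocyte was followed through every poly(A) and RiboMinus library of a mouse oocyte series: Zar1, Zar1l, Ybx2, Cpeb1, Lsm14b, Eif4enif1, Ddx6, Patl2, Eif4e1b and Dazl. The list names storage and translation control genes and uses no measured value, though it was chosen with earlier results of these data known. It makes up 10 of 55573 gene IDs in the poly(A) count files and 10 of 55487 in the RiboMinus count files. All 10 passed the filter on low counts in each fit. Poly(A) RNA of single oocytes was sequenced in control and Dis3 conditional knockout (cKO) females at the germinal vesicle stage (GV, prophase arrest with an intact nucleus), after 3 h of culture (GV3h) and as metaphase II eggs (MII), with 8 control libraries per stage and 15 (GV), 16 (GV3h) and 16 (MII) Dis3 cKO libraries. RNA depleted of ribosomal RNA (RiboMinus) was sequenced from single GV oocytes of adult control and Dis3 cKO females, and from oocytes of postnatal day 20 (p20) of control, Dis3 cKO, Exosc10 cKO and Dis3 Exosc10 double cKO (dcKO) females, with 8 libraries in each of these groups. CUT&Tag peak lists of H3K27me3 and RNA polymerase II, 3 per group, served as a further readout. The labels state that the mutant mice were made by CRISPR/Cas9, that GV and 3 h oocytes were dissected from ovaries and kept in M2 medium, and that MII eggs came from the oviducts of superovulated females. The labels give neither the Cre driver nor the strain, nor the age of females other than p20, and do not say which oocytes came from the same female. Adjusted p-values are from edgeR's quasi-likelihood F test with Benjamini-Hochberg adjustment over all genes tested, and the threshold was 0.05.

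Fully grown oocytes stop transcription before meiosis resumes, and later protein synthesis draws on messages stored in a repressed, short-tailed form. CPEB1 holds messages that carry a cytoplasmic polyadenylation element. With the eIF4E transporter (Eif4enif1), the oocyte cap-binding protein EIF4E1B, the RNA helicase DDX6 and its partners PATL2 and LSM14B it belongs to repressor complexes that keep the cap away from the initiation machinery. ZAR1, ZAR1L and the Y-box protein YBX2 bind and stabilise the stored pool. DAZL is an RNA-binding protein known in mouse oocytes for promoting translation of stored messages during maturation, so the list also holds an activator. The RNA exosome, which trims and degrades RNA, owes its activity in the nucleus to DIS3 and EXOSC10. A poly(A) library captures RNA through its tail, so a difference in tail length and a difference in amount cannot be told apart in those values.

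The genes lie on separate loci of GRCm38.p6, with Zar1 (ENSMUSG00000063935, chr5:72577113-72581361) and Zar1l (ENSMUSG00000056586, chr5:150507055-150518194) on one chromosome. Ybx2 (ENSMUSG00000018554) spans chr11:69935805-69941604, Lsm14b (ENSMUSG00000039108) chr2:180024900-180035466, Eif4e1b (ENSMUSG00000074895) chr13:54783994-54788459 and Dazl (ENSMUSG00000010592) chr17:50279393-50293620. The other 4 share sequence space with annotated neighbours. Cpeb1 (ENSMUSG00000025586, chr7:81347026-81458001) overlaps Gm18922 and Rpl7a-ps9, Eif4enif1 (ENSMUSG00000020454, chr11:3202343-3244588) overlaps Sfi1 and Gm51877, Ddx6 (ENSMUSG00000032097, chr9:44602983-44640731) overlaps Gm30671, and Patl2 (ENSMUSG00000027233, chr2:122120108-122186189) overlaps B2m and Trim69. The strand setting of the counting is not given in the sources used here, so reads of these 4 genes and of their neighbours could have been shared.

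Sequence before the start site is shown for 3 members: Cpeb1 and Zar1, because the chromatin data below bear on their starts, and Zar1l, the member with the steepest drop at maturation. Each run is the 250 bases before the RefSeq start (GRCm38.p6), 5′ to 3′ on the gene's strand, which is the minus strand for all 3. Capitals mark matches, on either strand, to an E-box (CANNTG), to TAATTA or TAATTG (homeobox-type letters), or to TATAAA. The intervals are chr7:81454759-81455008 for Cpeb1, chr5:72581085-72581334 for Zar1 and chr5:150518160-150518409 for Zar1l. Those of Cpeb1 and Zar1 lie within the gene spans given above and that of Zar1l overlaps its span in part, so each start used lies inside the span.
Cpeb1: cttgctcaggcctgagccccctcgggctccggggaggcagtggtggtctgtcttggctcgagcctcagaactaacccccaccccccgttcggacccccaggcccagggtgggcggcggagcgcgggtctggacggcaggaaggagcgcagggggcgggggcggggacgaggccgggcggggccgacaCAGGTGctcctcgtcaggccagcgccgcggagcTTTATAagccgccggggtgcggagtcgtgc
Zar1: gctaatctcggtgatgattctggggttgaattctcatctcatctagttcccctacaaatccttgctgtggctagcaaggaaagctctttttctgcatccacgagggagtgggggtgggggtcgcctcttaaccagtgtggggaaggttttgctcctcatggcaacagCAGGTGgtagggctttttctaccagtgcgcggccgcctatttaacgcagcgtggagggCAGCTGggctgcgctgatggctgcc
Zar1l: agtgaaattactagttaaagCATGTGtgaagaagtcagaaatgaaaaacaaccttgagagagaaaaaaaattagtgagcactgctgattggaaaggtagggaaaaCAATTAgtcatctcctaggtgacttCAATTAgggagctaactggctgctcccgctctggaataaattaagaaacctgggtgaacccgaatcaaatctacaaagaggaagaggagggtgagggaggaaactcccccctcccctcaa
Cpeb1 holds 1 E-box and 1 TATAAA match on the opposite strand in a run of 74% G+C. Zar1 holds 2 E-boxes at 55.6% G+C, and Zar1l 1 E-box and 2 TAATTA or TAATTG matches at 42.8% G+C. Of 32851 promoters in the same table, 66.2% held CANNTG, 11.2% TAATTA or TAATTG and 12.4% TATAAA, and the median G+C was 52.4%. RefSeq starts were found for 8 of the 10 members, and Ddx6 and Eif4e1b are the other two.

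The poly(A) libraries held 4843964 to 15412200 gene counts and the RiboMinus libraries 8492102 to 35429028. Levels are given as TMM-scaled CPM of the fit a comparison belongs to. These are counts relative to a library size that edgeR adjusts by a trimmed mean of gene ratios (TMM). They are compared between groups, not between genes, since transcript lengths were not used. The targeted genes followed the labels: the log2 change of Dis3 lay between -3.63 and -2.18 in the Dis3 cKO and dcKO groups, and that of Exosc10 was -5.22 in Exosc10 cKO and -4.01 in dcKO. Exosc10 was also lower in GV3h Dis3 cKO oocytes (-0.53, edgeR adjusted p = 0.00259). Dis3 differed between the control tags of the RiboMinus data, at means of 20.6 and 10.2 CPM in adults and 17.8 and 9.51 CPM at p20, above the 1.34 to 3.49 CPM of the Dis3 cKO and dcKO tags. All 12 oocyte markers on a list (Gdf9, Bmp15 and the zona genes among them) stood at 1 CPM or more in every group. A granulosa and cumulus list of 15 genes summed to between 51.7 and 345.9 CPM per library, led by Nr5a2 and Cyp19a1, with Ptx3 and Tnfaip6 at 0 in most groups. A blood, stroma and endothelium list of 11 genes summed to between 14.7 and 115 CPM, nearly all of it Pecam1. Some libraries that stand apart are named here. GV Dis3 cKO oocyte 16 had a ratio of gene counts to ERCC counts of 207.9, against 77.5 to 122.1 in the rest of its group. MII Dis3 cKO oocyte 15 had a ratio of gene counts to ERCC spike-in counts of 14.4 against 48.6 to 81.0 in the other MII Dis3 cKO eggs, and GV control oocyte 1 differed from the other GV controls in Dazl and Exosc10. Counts of GV3h Dis3 cKO oocytes 15 and 16 lay far closer to each other (chi-square per degree of freedom 2.67) than those of the next closest pair of that group (8.22), yet not within counting noise, and both were kept as separate oocytes. RiboMinus titles carry 2 tags per group with 4 oocytes each, which may mark females. P-values over oocytes then measure the spread between these oocytes.

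Maturation of control oocytes moved most of these messages. In MII eggs against GV oocytes, 7 members fell and 3 rose under TMM scaling (the 3 rises turned negative with ERCC scaling), so all 10 passed the threshold, against 58.5% of all 17389 genes tested (35.8% lower and 22.7% higher). The median log2 change of the members was -0.74, and that of all genes -0.27. Values of 7 members did not overlap between the 2 stages, against 28.4% of all genes. Scaling to the ERCC spike-ins, which were added in equal amount to each poly(A) lysate per the labels (the amount in RiboMinus lysates is not given there), in place of TMM moved the median of all genes from -0.27 to -2.12. Changes described here are therefore relative to the TMM-adjusted size of each library.

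Zar1l dropped furthest. Control GV oocytes held 161 to 250 CPM (median 197) and control MII eggs 20.5 to 33.7 CPM (median 29.1). Every egg lay below every GV oocyte, with a log2 fold change of -2.84 ± 0.19 (SE, n = 8 per stage, edgeR adjusted p = 2.50e-22). Ybx2 went from 17.9 to 30.3 CPM (median 21.6) in GV to 3.58 to 7.60 CPM (median 6.25) in MII, again without overlap (-1.93 ± 0.18, edgeR adjusted p = 9.09e-15). Zar1, the paralogue of Zar1l, behaved otherwise: it held 876 to 1413 CPM (median 1054) in GV and 588 to 969 CPM (median 733) in MII. These ranges overlapped, and the log2 change of -0.48 ± 0.22 sat at the threshold (edgeR adjusted p = 0.0499). Without GV control 1 and MII Dis3 cKO oocyte 15 it was -0.32 with an edgeR adjusted p of 0.0964.

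Within the CPE-binding complex, Cpeb1 and Eif4e1b fell, and Eif4enif1 rose except with ERCC scaling, which turned its value. Cpeb1 held 943 to 1248 CPM (median 1007) in control GV oocytes and 283 to 486 CPM (median 376) in MII eggs, with all eggs below all oocytes (-1.46 ± 0.15, edgeR adjusted p = 1.10e-13). Eif4e1b went from 489 to 658 CPM (median 545) to 264 to 420 CPM (median 359), also without overlap (-0.69 ± 0.14, edgeR adjusted p = 1.27e-05). Eif4enif1 went from 529 to 623 CPM (median 555) to 671 to 990 CPM (median 887). Every egg lay above every GV oocyte under TMM scaling, at 0.59 ± 0.10 on the log2 scale (edgeR adjusted p = 5.18e-07), but with ERCC scaling the direction flipped to -1.27.

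Of the DDX6 helicase and its partners, Patl2 and Ddx6 fell, and Lsm14b rose except with ERCC scaling, which turned its value. Patl2 held 35.9 to 126 CPM (median 52.2) in GV and 12.6 to 28.4 CPM (median 19.8) in MII without overlap (-1.78 ± 0.23, edgeR adjusted p = 2.84e-10). Ddx6 held 21.99 to 129 CPM (median 56.1) in GV and 22.6 to 51.8 CPM (median 40.0) in MII, ranges that overlapped (-0.80 ± 0.27, edgeR adjusted p = 0.0101). Lsm14b went from 674 to 1003 CPM (median 827) to 933 to 1509 CPM (median 1222). Those ranges overlapped, and the rise of 0.47 ± 0.14 (edgeR adjusted p = 0.00263) turned to -1.37 with ERCC scaling.

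Dazl was the member with the largest rise under TMM scaling. GV control oocytes held 515 to 1250 CPM (median 690) and MII controls 1895 to 3074 CPM (median 2260). All eggs lay above all GV oocytes, with a log2 change of 1.68 ± 0.15 (edgeR adjusted p = 4.33e-16). With ERCC scaling the value was -0.19 with an edgeR adjusted p of 0.361. The rise thus holds relative to the TMM-adjusted library size and not as an amount per spike-in.

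**Figure D1:**
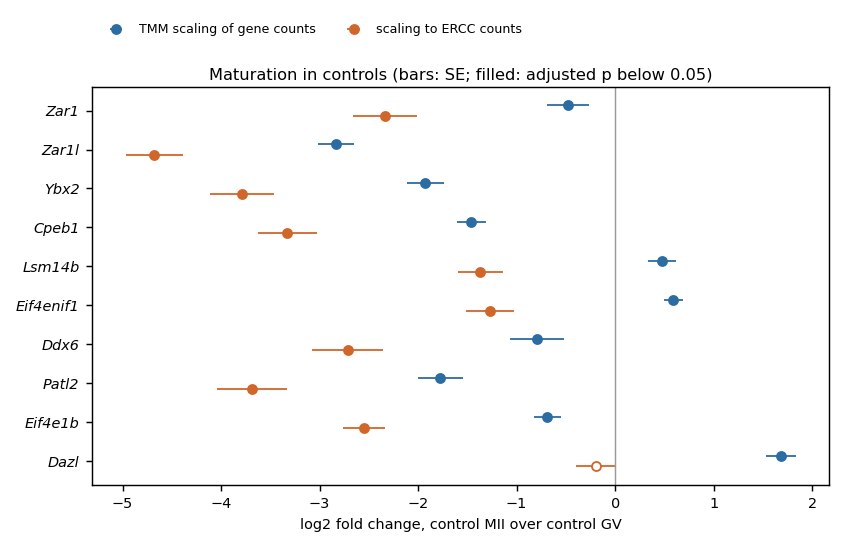
Log2 change from control GV oocytes to control MII eggs (n = 8 each) for the 10 members under TMM scaling and under scaling to ERCC counts, with bars of 1 SE. With ERCC scaling every member's value lies lower, and the positive values of Lsm14b, Eif4enif1 and Dazl become negative, in step with the shift of the all-gene median from -0.27 to -2.12.

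Between GV and GV3h controls, of the 10 members only Ddx6 passed the threshold in the fit of all poly(A) groups, against 2.71% of all genes. Control GV3h oocytes held 21.4 to 41.3 CPM of Ddx6 (median 30.3), within a narrower range than the 21.99 to 129 CPM of GV controls. The log2 change was -1.21 ± 0.28 (edgeR adjusted p = 0.00734), and with ERCC scaling -1.03 with an edgeR adjusted p of 0.166. The GV control values fell in 2 sets: oocytes 2, 3 and 6 held 129, 93.2 and 97.5 CPM and the other 5 held 21.99 to 58.4 CPM. The same 3 oocytes held 126, 94.98 and 99.8 CPM of Patl2 against 35.9 to 52.9 CPM in the other 5. They also had the most detected genes of that group, 20897 to 21431 against 18661 to 20043, and the part of this in the Ddx6 result was not tested. Of 11 tested granulosa and cumulus markers, 4 fell and 0 rose between these control groups (median -0.93), and their part was not tested either.

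**Figure D2:**
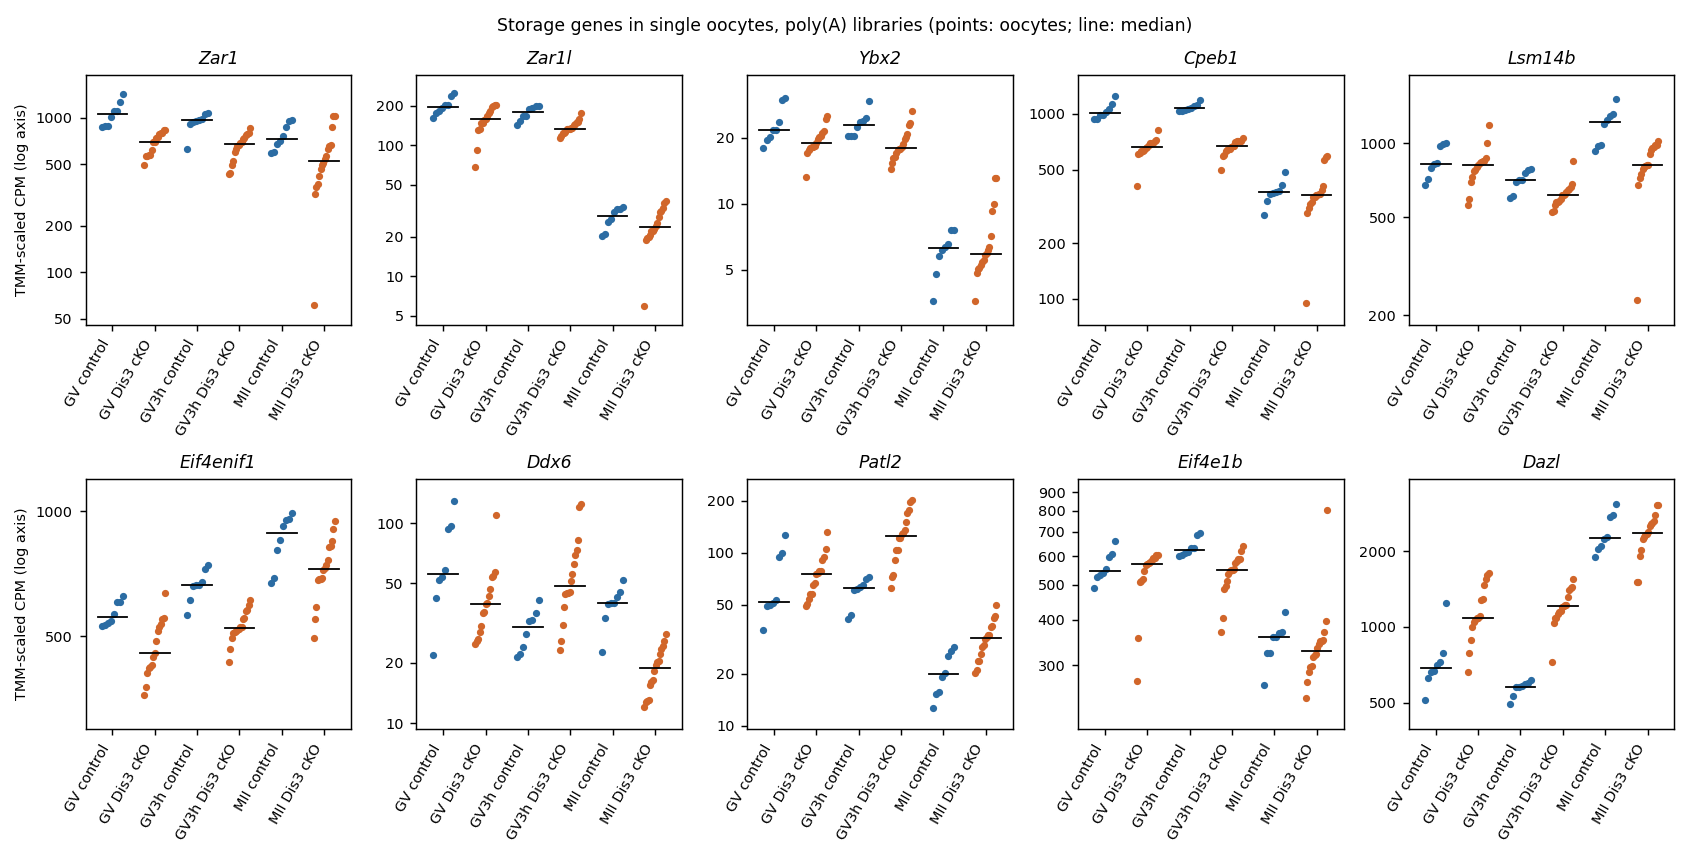
Level of each member in every poly(A) library, in TMM-scaled CPM on a log axis, by stage and genotype, with 1 point per oocyte and a bar at the group median. Cpeb1 lies lower in all Dis3 cKO oocytes than in controls at GV and GV3h, Dazl lies higher in all Dis3 cKO oocytes at GV3h, and Zar1l and Ybx2 drop in MII eggs of both genotypes.

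Loss of Dis3 was compared with controls at each poly(A) stage. At GV, 4 members fell and 1 rose, 5 of 10 against 21.9% of all genes (8.33% lower and 13.6% higher). At GV3h 4 fell and 3 rose, 7 of 10 against 38.6% (15.7% lower and 22.9% higher). At MII 4 fell and 1 rose, 5 of 10 against 42.1% (14.8% lower and 27.3% higher), a share close to that of all genes. The median log2 change of the members was -0.25 at GV, -0.26 at GV3h and -0.09 at MII, beside 0.04, 0.07 and 0.16 for all genes. With ERCC scaling the medians of all genes were -0.23, 0.04 and 0.52. At GV 4 members then fell and 0 rose, where 2317 of 17389 genes fell and 1265 rose. At GV3h 1 fell and 3 rose, where 1850 genes fell and 3046 rose. At MII 1 fell and 2 rose, where 749 genes fell and 6535 rose. The granulosa and cumulus list also differed at MII, with sums of 86.4 to 201.3 CPM in controls and 53.1 to 85.2 CPM in mutants, where 3 of its 15 genes reached 1 CPM and Foxl2, Amhr2 and Inha were at 0. Of its 11 tested genes, 2 were lower and 1 higher in mutants at GV (median -0.12), 1 lower and 2 higher at GV3h (median 0.75), and 6 lower and 1 higher at MII (median -0.94). Pecam1, the 1 tested gene of the blood, stroma and endothelium list, was lower at each stage (-1.03, -0.92 and -0.54, edgeR adjusted p = 3.10e-06, 9.86e-06 and 0.00820). The part of these markers in the members' values was not tested.

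Cpeb1 fell in GV and GV3h oocytes and was not called in MII eggs. GV controls held 943 to 1248 CPM (median 1007) and GV Dis3 cKO oocytes 406 to 816 CPM (median 659). All 15 mutant oocytes lay below all 8 controls, a separation found for 3.16% of all genes at this stage, and the log2 change was -0.66 ± 0.13 (edgeR adjusted p = 2.98e-05). At GV3h controls held 1035 to 1194 CPM (median 1076) and mutants 495 to 744 CPM (median 667). Again all 16 mutants lay below the controls, a separation found for 9.28% of all genes (-0.72 ± 0.12, edgeR adjusted p = 2.73e-06), and ERCC scaling kept both calls. At MII the ranges were 283 to 486 CPM in controls and 94.6 to 591 CPM in mutants (medians 376 and 365), and no difference passed (0.01 ± 0.13, edgeR adjusted p = 0.975). The Dis3 effect on Cpeb1 thus differed between MII and GV by 0.67 ± 0.18 on the log2 scale (interaction, edgeR adjusted p = 0.00725), and in a fit of only the groups compared by 0.64 with an edgeR adjusted p of 0.0545.

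Eif4enif1 fell by a small amount at every stage, except that its MII value turned positive with ERCC scaling. GV controls held 529 to 623 CPM (median 555) and GV mutants 360 to 636 CPM (median 456), with 11 of 15 mutants below the lowest control (-0.26 ± 0.09, edgeR adjusted p = 0.0212). At GV3h controls held 561 to 742 CPM (median 665) and mutants 434 to 611 CPM (median 523), with 12 of 16 below (-0.32 ± 0.09, edgeR adjusted p = 0.00159). At MII the medians were 887 and 725 CPM and 3 of 16 mutants lay below the lowest control of 671 CPM (-0.23 ± 0.09, edgeR adjusted p = 0.0257). ERCC scaling ended these 3 calls and turned the MII value to 0.18, and the MII call was also lost in a fit of only the groups compared (edgeR adjusted p = 0.0645) and with title numbers 1 to 8 only (0.0519). The cap-binding member Eif4e1b passed at none of the stages in the fit of all poly(A) groups, with log2 values of -0.08, -0.24 and 0.02 (edgeR adjusted p = 0.691, 0.0964 and 0.916). Without GV control 1 and MII Dis3 cKO oocyte 15, its GV3h value was -0.29 with an edgeR adjusted p of 0.00625, and in a fit of only the groups compared -0.26 (0.00576).

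Ddx6 changed direction between stages. In GV oocytes controls held 21.99 to 129 CPM (median 56.1) and mutants 24.8 to 110 CPM (median 39.4). No mutant lay outside the control range, and the log2 value of -0.66 ± 0.23 (edgeR adjusted p = 0.0326) had an edgeR adjusted p of 0.0570 in a fit of only the groups compared. At GV3h controls held 21.4 to 41.3 CPM (median 30.3) and mutants 23.3 to 125 CPM (median 48.6). Of the 16 mutants, 12 lay above the highest control (0.98 ± 0.25, edgeR adjusted p = 9.73e-04). At MII controls held 22.6 to 51.8 CPM (median 40.0) and mutants 12.1 to 27.9 CPM (median 18.9), with 12 of 16 mutants below the lowest control (-1.07 ± 0.23, edgeR adjusted p = 1.19e-04). The effect at GV3h exceeded that at GV by 1.64 ± 0.34 (interaction, edgeR adjusted p = 0.00377), where 2.04% of all genes passed. GV control oocytes 2, 3 and 6, named above, hold the upper end of the GV control range, and their part in this was not tested. With title numbers 1 to 8 only, which leaves 8 mutants per stage, the GV value was -0.37 with an edgeR adjusted p of 0.319 and the interaction 1.28 with an edgeR adjusted p of 0.0358. The interaction no longer passed when the title number was added as a replicate block to those libraries.

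Patl2 rose at GV3h and MII. GV controls held 35.9 to 126 CPM (median 52.2) and GV mutants 49.0 to 132 CPM (median 75.5), overlapping ranges with no call (0.11 ± 0.19, edgeR adjusted p = 0.754). At GV3h the controls held 41.4 to 72.0 CPM (median 62.5) and the mutants 62.2 to 202 CPM (median 125), and 15 of 16 mutants exceeded every control (1.09 ± 0.20, edgeR adjusted p = 7.29e-06). At MII the medians were 19.8 and 32.2 CPM and 11 of 16 mutants exceeded the highest control of 28.4 CPM (0.65 ± 0.20, edgeR adjusted p = 0.00562). With title numbers 1 to 8 only, the MII value was 0.52 with an edgeR adjusted p of 0.0501. The GV3h effect exceeded the GV effect by 0.99 ± 0.27 (interaction, edgeR adjusted p = 0.0337), and without GV3h Dis3 cKO oocyte 15 by 0.94 with an edgeR adjusted p of 0.0539. GV control oocytes 2, 3 and 6, named above for high Ddx6 and Patl2, hold the upper end of the GV control range. Their part in the missing GV call and in this interaction was not tested. Lsm14b, the other partner of DDX6, passed at MII: controls held 933 to 1509 CPM (median 1222) and mutants 230 to 1021 CPM (median 818). The lowest value belongs to oocyte 15, and 10 of 16 mutants lay below every control (-0.52 ± 0.12, edgeR adjusted p = 2.37e-04, and -0.49 without oocyte 15 and GV control 1). With ERCC scaling this value was -0.13 with an edgeR adjusted p of 0.616. At GV3h its value was -0.19 (edgeR adjusted p = 0.222), in a fit of only the groups compared -0.20 (0.0186), and without oocyte 15 and GV control 1 -0.24 (0.0272).

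Zar1 fell at all 3 stages under TMM scaling, and its MII value turned positive with ERCC scaling. GV controls held 876 to 1413 CPM (median 1054) and GV mutants 494 to 837 CPM (median 697). All 15 mutants lay below all controls (-0.64 ± 0.19, edgeR adjusted p = 0.00751). At GV3h the ranges were 626 to 1075 CPM and 434 to 852 CPM (medians 959 and 676), overlapping through 1 control at 626 CPM (-0.52 ± 0.18, edgeR adjusted p = 0.0203, and 0.124 with ERCC scaling). At MII controls held 588 to 969 CPM (median 733) and mutants 61.4 to 1027 CPM (median 524), with 10 of 16 below and 2 of 16 above the control range. The MII value of -0.45 ± 0.18 (edgeR adjusted p = 0.0421) was -0.40 without oocyte 15 and GV control 1, and turned to 0.034 with ERCC scaling. Its call was lost in a fit of only the groups compared (edgeR adjusted p = 0.179) and with title numbers 1 to 8 only (0.160). Zar1l passed at GV3h, where controls held 144 to 200.1 CPM (median 178) and mutants 113 to 178 CPM (median 134), with 11 of 16 below the controls (-0.36 ± 0.15, edgeR adjusted p = 0.0452). Without GV3h Dis3 cKO oocyte 15 the edgeR adjusted p was 0.0635. Its GV value was of similar size at -0.35 but did not pass, nor did the MII value of -0.17 (edgeR adjusted p = 0.0843 and 0.393). Ybx2 did not pass at any stage in the fit of all poly(A) groups, at -0.25, -0.29 and 0.21 on the log2 scale (edgeR adjusted p = 0.268, 0.123 and 0.303), on levels of 3.58 to 30.3 CPM. In a fit of only the groups compared it fell at GV3h (-0.31, edgeR adjusted p = 0.0165), and with ERCC scaling it was higher at MII (0.65, edgeR adjusted p = 0.0411).

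Dazl rose at GV and GV3h and was not called at MII. GV controls held 515 to 1250 CPM (median 690) and GV mutants 663 to 1637 CPM (median 1082), and 6 of 15 mutants exceeded every control (0.65 ± 0.13, edgeR adjusted p = 7.94e-05). The next highest GV control after oocyte 1 held 790.5 CPM, and without oocyte 1 and MII Dis3 cKO oocyte 15 the value was 0.79. At GV3h controls held 494 to 617 CPM (median 579) and mutants 728 to 1547 CPM (median 1211). All 16 mutants exceeded all controls (1.08 ± 0.13, edgeR adjusted p = 6.93e-10). At MII the medians were 2260 and 2364 CPM and the ranges lay over each other (-0.02 ± 0.13, edgeR adjusted p = 0.908). The effect at MII was lower than at GV by 0.68 ± 0.18 (interaction, edgeR adjusted p = 0.00653), where 13.2% of all genes passed. With ERCC scaling the GV value was 0.35 with an edgeR adjusted p of 0.158, the GV3h value was 1.03 and passed, and the interaction was -0.02 with an edgeR adjusted p of 0.968.

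The path from GV to MII was also read within the Dis3 cKO oocytes. From GV to MII, 8 members passed, 6 lower and 2 higher, against 63.3% of all genes (38.5% lower and 24.8% higher), and Ybx2 and Zar1l separated fully between the stages, as did 9.96% of all genes. Zar1l fell by 2.65, Ybx2 by 1.47, Patl2 by 1.23, Ddx6 by 1.21, Cpeb1 by 0.79 and Eif4e1b by 0.59, and Dazl (1.01) and Eif4enif1 (0.62) rose except with ERCC scaling, which turned both values. Lsm14b (0.02, edgeR adjusted p = 0.89) and Zar1 (-0.29, edgeR adjusted p = 0.092) did not pass. ERCC scaling turned Eif4enif1 to -0.60, Lsm14b to -1.14 and Dazl to -0.21. From GV to GV3h, Patl2 rose by 0.76 and Lsm14b fell by 0.39 in the mutants, 2 of 10 against 17.3% of all genes, and the Lsm14b value was 0.10 with ERCC scaling. With title numbers 1 to 8 only it was -0.33 with an edgeR adjusted p of 0.0582. Of 11 tested granulosa and cumulus markers, 3 fell and 0 rose between these mutant groups (median -1.20). From GV to MII 8 of these markers fell and 1 rose in the mutants (median -2.86), and 6 fell and 1 rose in controls (median -0.51), and their part in the members' values was not tested. These comparisons share their mutant libraries with those against control.

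**Figure D3:**
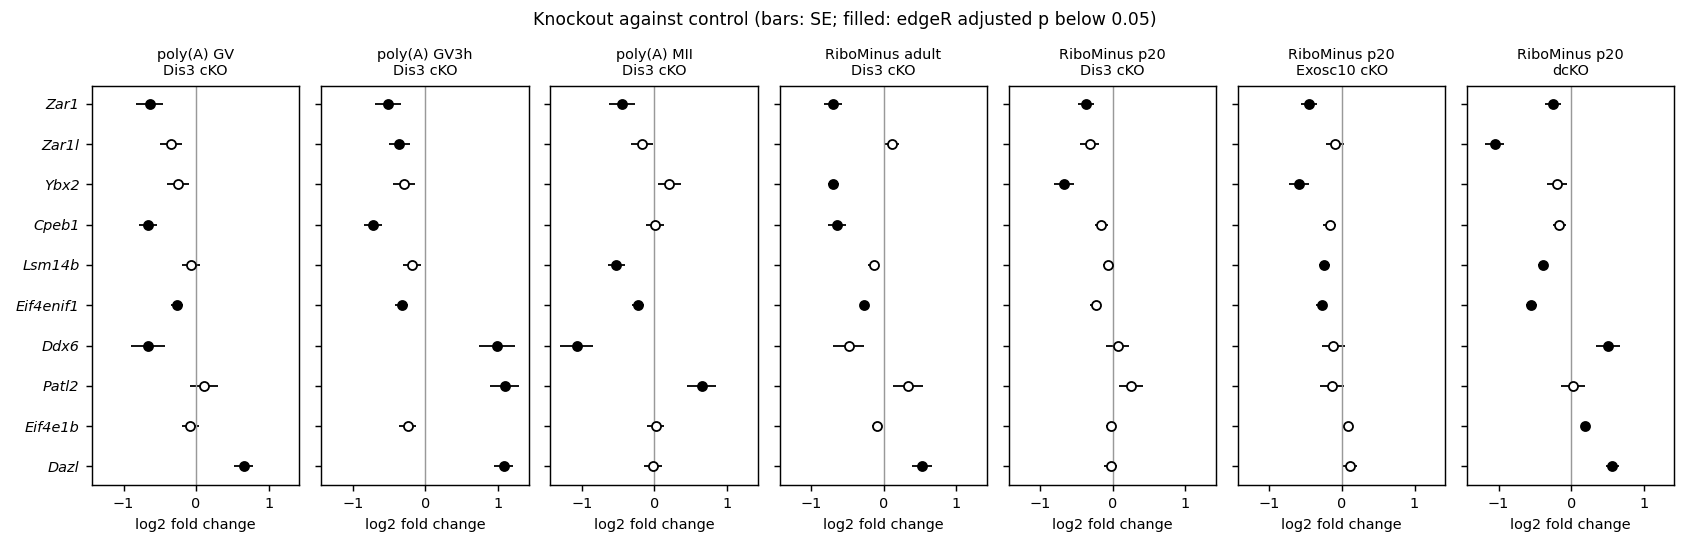
Log2 fold change of the 10 members (bars are 1 SE, filled points pass the threshold) in each knockout comparison of the poly(A) and RiboMinus data under TMM scaling. Zar1 lies below 0 in all 7 comparisons and Eif4enif1 likewise, except that both lie above 0 at MII with ERCC scaling, while Dazl lies above 0 where it passes, though not in adult RiboMinus oocytes with ERCC scaling.

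Total RNA of adult GV oocytes was read in the RiboMinus libraries. In Dis3 cKO against control, 4 members fell and 1 rose, 5 of 10 against 28.1% of all genes (12.4% lower and 15.7% higher), and 4 did not overlap, against 6.99%. The median log2 change of the members was -0.20, beside 0.03 for all genes. With ERCC scaling the median of all genes was -0.52 and 8 members fell, where 6144 of 15334 genes fell and 699 rose.

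Ybx2 had the smallest adjusted p of the members here. Controls held 166.3 to 190.6 CPM (median 178.7) and mutants 82.2 to 127.1 CPM (median 111.9), so all 8 mutants lay below all 8 controls (-0.69 ± 0.08, edgeR adjusted p = 6.67e-06). Zar1 held 335.5 to 452.3 CPM (median 389.1) in controls and 171.8 to 308.2 CPM (median 231.4) in mutants, also without overlap (-0.70 ± 0.12, edgeR adjusted p = 3.82e-04). Cpeb1 went from 950.8 to 1160.0 CPM (median 1054) to 400.0 to 941.0 CPM (median 690), and Eif4enif1 from 842.9 to 965.8 CPM (median 895.6) to 666.8 to 797.1 CPM (median 760.5). Neither overlapped, at -0.64 ± 0.12 and -0.27 ± 0.05 (edgeR adjusted p = 7.16e-04 and 6.69e-04).

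Dazl rose in the same libraries under TMM scaling, and its value turned to -0.016 with ERCC scaling. Controls held 378.4 to 717.8 CPM (median 645.8) and mutants 627.7 to 1089 CPM (median 845), and 7 of 8 mutants exceeded every control (0.53 ± 0.14, edgeR adjusted p = 0.00680). The others did not pass: Ddx6 (-0.48, edgeR adjusted p = 0.0973), Patl2 (0.34, 0.241), Lsm14b (-0.14, 0.183), Zar1l (0.12, 0.369) and Eif4e1b (-0.09, 0.282).

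Levels moved with the title tags inside a group. The 2 mutant tags averaged 191.6 and 288.5 CPM of Zar1 (n = 4 oocytes each), below the 2 control tags at 353.8 and 425.0 CPM. For Cpeb1 the mutant tags averaged 553.5 and 790.0 CPM and the control tags 1078 and 1022 CPM, and for Dazl 991.7 and 741.4 CPM against 696.2 and 500.4 CPM. Both mutant tags thus lay on the same side of both control tags for these 3 genes, and also for Ybx2, Eif4enif1, Ddx6 and Eif4e1b. They did not for Patl2 (96.1 and 51.4 CPM in mutant tags, 58.9 and 57.7 CPM in control tags). Nor did they for Lsm14b (1173 and 1412 CPM, 1432 and 1408 CPM) or Zar1l (139.1 and 161.8 CPM, 139.8 and 136.7 CPM). With counts summed per tag, 2 sums per group, 0 of 10 members and 0 of 20190 genes passed edgeR's test, 5 members had an unadjusted p under 0.05, and the edgeR adjusted p was 0.145 for Ybx2, 0.186 for Cpeb1 and 0.204 for Zar1.

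**Figure D4:**
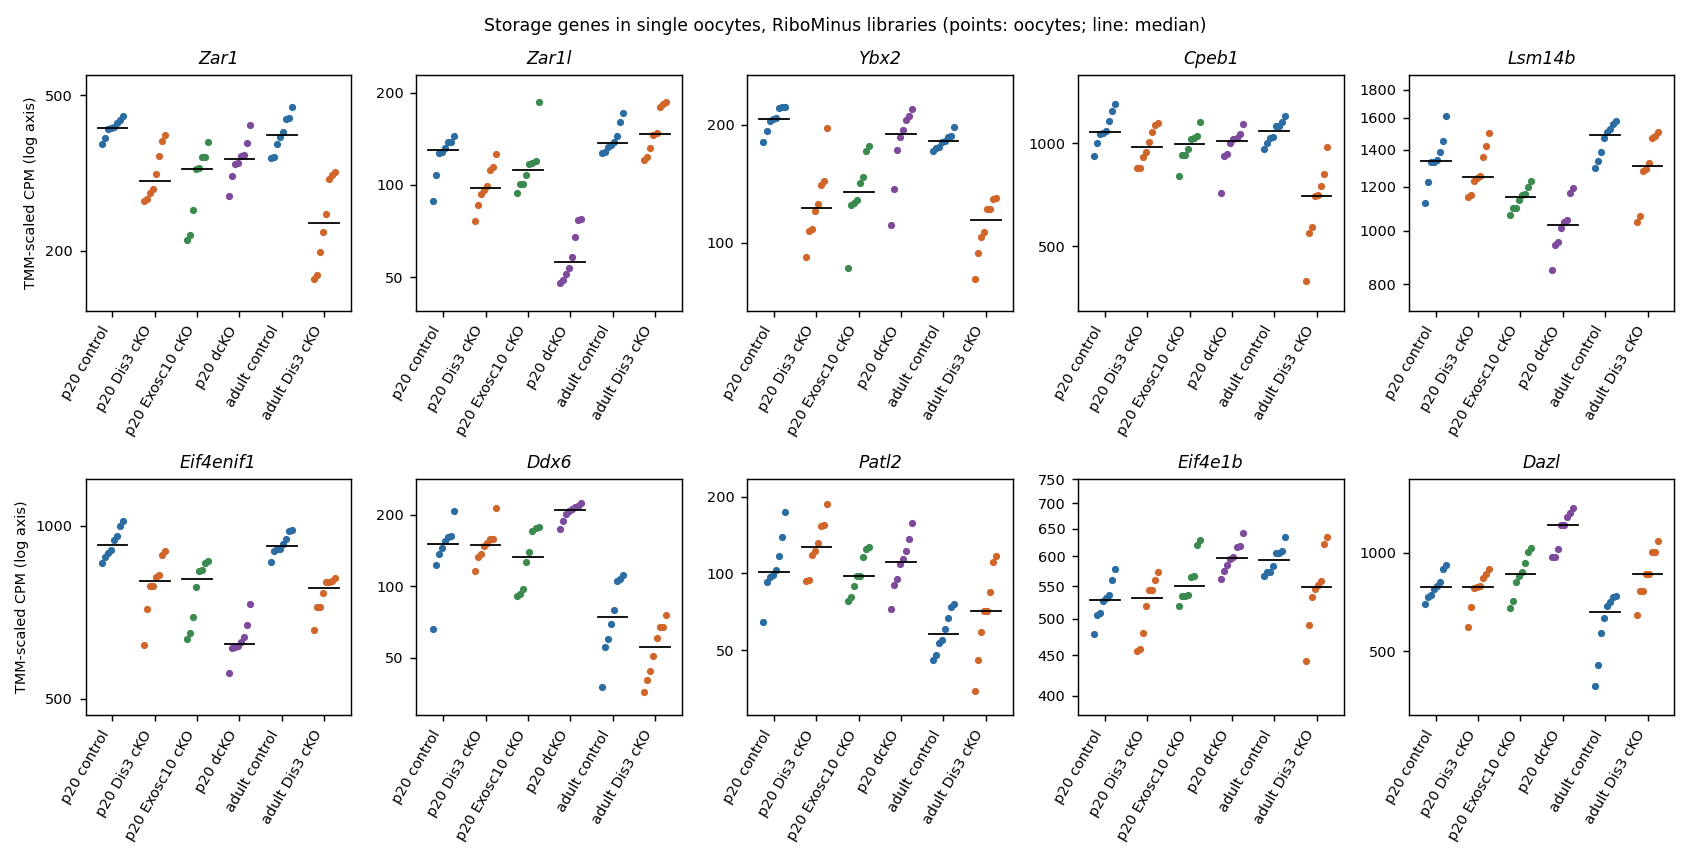
Level of each member in every RiboMinus library, in TMM-scaled CPM on a log axis, by age and genotype, with 1 point per oocyte and a bar at the group median. The plotted scale is that of the fit of all 6 groups. On it Zar1, Ybx2 and Eif4enif1 lie lower in all adult Dis3 cKO oocytes than in adult controls, and Zar1l lies lower in all dcKO oocytes than in p20 controls.

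Single loss of Dis3 or of Exosc10 was compared with controls in growing oocytes of p20. In Dis3 cKO, 2 members fell and 0 rose, against 7.37% of all genes (3.76% lower and 3.61% higher). In Exosc10 cKO 4 fell and 0 rose, against 7.45% (3.50% lower and 3.95% higher). Both comparisons use the same 8 controls. Ybx2 held 182.3 to 223.5 CPM (median 209.5) in controls, 92.9 to 198.7 CPM (median 124.1) in Dis3 cKO and 86.6 to 177.0 CPM (median 136.4) in Exosc10 cKO. All Exosc10 cKO oocytes lay below all controls, a separation found for 1.76% of all genes, whereas the highest Dis3 cKO oocyte reached into the control range. The log2 values were -0.68 ± 0.14 (edgeR adjusted p = 9.17e-04) and -0.59 ± 0.14 (edgeR adjusted p = 0.00481). Zar1 held 379.3 to 438.9 CPM (median 418) in controls, 268.3 to 401.1 CPM (median 304.3) in Dis3 cKO and 212.8 to 382.9 CPM (median 325.2) in Exosc10 cKO (-0.37 ± 0.11 and -0.46 ± 0.11, edgeR adjusted p = 0.0252 and 0.00494), and in Dis3 cKO the adjusted p was 0.0556 with ERCC scaling. Eif4enif1 (-0.28 ± 0.08, edgeR adjusted p = 0.0184) and Lsm14b (-0.24 ± 0.07, edgeR adjusted p = 0.0346) also fell in Exosc10 cKO. In Dis3 cKO the Eif4enif1 value was -0.23 with an edgeR adjusted p of 0.0563. With counts summed per tag, Ybx2 alone kept its call in Dis3 cKO and in Exosc10 cKO, where 132 of 20911 genes rose and 154 fell in the former, and 112 rose and 62 fell in the latter. With ERCC scaling no member passed in Exosc10 cKO by edgeR, and 1 had an unadjusted p under 0.05. Cpeb1 and Dazl, which differed in adult Dis3 cKO oocytes, were at -0.16 and -0.03 in p20 Dis3 cKO. The adult effect differed from the p20 effect by -0.50 ± 0.15 for Cpeb1 and 0.54 ± 0.16 for Dazl (interactions, edgeR adjusted p = 0.0255 and 0.0197), where 9.32% of all genes passed. Neither interaction passed with ERCC scaling (edgeR adjusted p = 0.166 and 0.610) or with counts summed per tag.

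Loss of both ribonucleases gave another pattern. In dcKO against control, 4 members fell and 3 rose, 7 of 10 against 53.7% of all genes (27.1% lower and 26.6% higher), and 3 did not overlap, against 19.6%. Of 10 tested granulosa and cumulus markers, 3 fell and 2 rose (median -0.46), and of 12 oocyte markers 3 fell and 6 rose (median 0.32). The 1 tested gene of the blood, stroma and endothelium list fell (-0.93). The part of these markers in the members' values was not tested. Zar1l held 89.7 to 144.9 CPM (median 131.1) in controls and 48.4 to 78.3 CPM (median 57.2) in dcKO, with no overlap (-1.05 ± 0.13, edgeR adjusted p = 3.96e-08). In the single knockouts it held 76.8 to 127.1 CPM in Dis3 cKO and 94.6 to 185.7 CPM in Exosc10 cKO. The dcKO value lay below both, by -0.73 ± 0.13 against Dis3 cKO (edgeR adjusted p = 1.7e-05) and -0.96 against Exosc10 cKO (edgeR adjusted p = 3.1e-07).

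Eif4enif1 held 871.7 to 1011 CPM (median 938.3) in controls and 559.0 to 741.9 CPM (median 630.8) in dcKO, without overlap (-0.55 ± 0.08, edgeR adjusted p = 3.52e-07). Dazl held 708.6 to 928.0 CPM (median 792.5) and 983.2 to 1392 CPM (median 1237), every dcKO oocyte above every control (0.57 ± 0.09, edgeR adjusted p = 4.35e-06). The calls of Zar1l, Eif4enif1 and Dazl held with ERCC scaling, and those of the other 4 did not. Lsm14b went from 1132 to 1599 CPM (median 1352) to 869.1 to 1209 CPM (median 1030), with ranges that overlapped (-0.39 ± 0.07, edgeR adjusted p = 3.48e-05). Ddx6 went from 65.4 to 210.8 CPM (median 152.1) to 177.5 to 228.5 CPM (median 213.5), a narrower range within the upper part of the control values and just above them (0.51 ± 0.16, edgeR adjusted p = 0.00739). Eif4e1b rose by 0.19 ± 0.06 (edgeR adjusted p = 0.00724), and Zar1 fell by 0.25 on the log2 scale at the edge of the threshold (edgeR adjusted p = 0.0445, and 0.0806 with DESeq2). With counts summed per tag these last 2 genes lost their calls (edgeR adjusted p = 0.213 and 0.185) and the other 5 kept them.

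Ybx2, lower in both single knockouts, was not called in dcKO. The dcKO oocytes held 111.5 to 225.0 CPM (median 191.8) against 182.3 to 223.5 CPM in controls (-0.19, edgeR adjusted p = 0.233). Its level was higher than in Dis3 cKO by 0.48 ± 0.14 (edgeR adjusted p = 0.0038) and than in Exosc10 cKO by 0.40 (edgeR adjusted p = 0.016). Against Dis3 cKO 7 of 10 members passed in all (51.5% of all genes), and against Exosc10 cKO 5 of 10 (49.2%). With ERCC scaling Zar1l alone passed against Exosc10 cKO. Cpeb1 did not pass in dcKO (-0.16, edgeR adjusted p = 0.112), nor did Patl2 (0.02, edgeR adjusted p = 0.914).

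Between ages, adult and p20 control oocytes were compared in a fit of all RiboMinus groups, where age goes together with any difference in collection that the labels do not give. Patl2 held 64.3 to 174.0 CPM (median 101.3) at p20 and 45.7 to 76.0 CPM (median 57.8) in adults (-0.89 ± 0.19, edgeR adjusted p = 6.05e-04). Ddx6 held 66.0 to 208.6 CPM (median 150.7) and 37.4 to 112.1 CPM (median 74.5), and the ranges of both genes overlapped (-0.89 ± 0.18, edgeR adjusted p = 4.83e-04). Dazl fell by 0.38 (edgeR adjusted p = 0.0129) and Eif4e1b rose by 0.17 (edgeR adjusted p = 0.0424), a call lost with DESeq2's size factors in edgeR (adjusted p = 0.0574) and without the filter on low counts (0.0770) and turned with ERCC scaling. These 3 lower and 1 higher of 10 stand beside 10.4% of all genes lower and 8.69% higher. ERCC scaling moved the median of all genes from -0.00 to -1.69, all 10 members then fell, as did 14797 of 17267 genes, and Eif4e1b read -1.51. Since the amount of spike-in at each age is not given, that shift and a difference in the amount added cannot be told apart. With counts summed per tag Ddx6 alone of the 4 kept its call.

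The 2 library types can be set side by side in control GV oocytes as a description, since capture, chemistry and depth differ. Ybx2 had a mean of 23.1 CPM in poly(A) and 177 CPM in RiboMinus libraries, a log2 ratio of -2.94, and 0.726% of 14748 genes had a lower ratio. Zar1 went the other way, with 1068 and 389 CPM (1.46, above 83.3% of genes). Lsm14b (-0.74) and Eif4enif1 (-0.67) were lower in poly(A) libraries, and the other 6 lay between -0.15 and 0.54, beside a median of 0.15 over all genes. In Dis3 cKO the ratio of Ybx2 was -2.50 and that of Zar1 1.52.

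At the start sites, H3K27me3, the mark laid down by Polycomb complex PRC2 on repressed genes, set Cpeb1 apart, which was singled out after its values were seen. The series' design text states that CUT&Tag reads were first sampled to an equal number per library. A peak counted when it lay within 1 kb of a RefSeq start, and starts of 8 members could be read. Cpeb1 had such a peak in 3 of 3 adult control lists and 3 of 3 p20 control lists, and in 0 of 3 lists of adult Dis3 cKO and 0 of 3 of p20 dcKO. The peaks covered 1074, 1866 and 1030 of 2001 bases around the start in adult controls and 1855, 1656 and 1614 in p20 controls, and 0 bases in each mutant list. At the start site itself, without the window, Cpeb1 had a peak in all 3 lists of p20 controls but not of adult controls. Over all 27025 genes, a peak in all 3 lists was found for 11.7% in adult controls, 15.8% in adult Dis3 cKO, 19.05% in p20 controls and 17.3% in p20 dcKO. Among the 8 members such a peak was found for 1 in each control group, Cpeb1, and for 0 in each mutant group. These counts lie near or below the shares of all genes. Of the 2931 genes (10.8%) with a peak in all 6 control lists, 154 (5.25%) had none in any mutant list. The mutant lists hold more peaks in total, 224934 to 276316 in adult Dis3 cKO against 87394 to 202628 in controls, and 244827 to 299716 in dcKO against 151535 to 159895.

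RNA of Cpeb1 was lower in adult Dis3 cKO (-0.64) and was not called in dcKO (-0.16), although its peak was absent from the lists of both mutants. Zar1 had a peak in 1 of 3 adult and 2 of 3 p20 control lists and in no mutant list, and Ybx2 in 1 of 3 lists of each control group and in no mutant list. Dazl had one in 2 of 3 dcKO lists only. Zar1l, Lsm14b, Eif4enif1 and Patl2 had none. RNA polymerase II peaks lay at no member's start in all 3 lists of a group, beside 0.448% of genes in adult controls, 1.34% in adult Dis3 cKO and 2.53% in p20 controls. The sequence shown above for Cpeb1 lies inside the window in which its control peaks were counted.

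Genes whose poly(A) level most resembled that of a member over the 71 libraries were sought among 8847 genes with a mean of at least 10 CPM, by Pearson r of log2(CPM + 1). These libraries share stage and genotype groups, so the values describe the pattern and carry no test. Zar1l was most like Cpsf4l and Lipt1 (both 0.974), Ybx2 like Hint1 and Edf1 (both 0.955), Patl2 like Trim71 (0.929) and Ldhc (0.896), and Cpeb1 like Elobl (0.926) and Nlrp2 (0.918). Dazl was most like Mob4 (0.925) and Uba3 (0.910). Lower values were found for Eif4e1b with Gemin7 (0.871) and Imp4 (0.870), Eif4enif1 with Sec16a (0.869) and Ppp2r1a (0.862), Lsm14b with Elovl5 (0.845) and Sfpq (0.817), Ddx6 with Slc26a2 (0.803) and Fyttd1 (0.794), and Zar1 with Srebf1 (0.801) and Jag2 (0.785). Among the members themselves, after subtraction of group means, Zar1 and Cpeb1 had an r of 0.714, Ddx6 and Patl2 0.662 and Zar1l and Lsm14b 0.658 over the same libraries. Those include MII Dis3 cKO oocyte 15 and GV control oocytes 2, 3 and 6, described above, whose part in these values was not tested.

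The wider machinery was counted from lists of related genes. Of 11 paralogues of the members, 4 fell and 0 rose in Dis3 cKO at GV, 4 fell and 1 rose at GV3h, and 7 fell and 1 rose at MII (median log2 changes -0.15, -0.25 and -0.48). Of all genes, 8.33% fell and 13.6% rose at GV, 15.7% and 22.9% at GV3h, and 14.8% and 27.3% at MII. Eif4e3, a cap-binding paralogue of Eif4e1b, fell by 0.77 at GV (edgeR adjusted p = 5.64e-10), 0.56 at GV3h and 0.55 at MII. Ybx1, the somatic Y-box gene, fell by 0.45 at GV, and Cpeb4 fell by 0.42. In dcKO 7 of 10 tested fell and 2 rose, beside 27.1% and 26.6% of all genes, with Cpeb2 higher by 2.93 (edgeR adjusted p = 5.78e-10) and Patl1 lower by 0.85 on the log2 scale.

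Of 14 decapping and P-body genes, 2 fell and 1 rose at GV, 4 fell and 2 rose at GV3h, and 2 fell and 8 rose at MII (medians -0.16, -0.03 and 0.54). Beside them 8.33%, 15.7% and 14.8% of all genes fell, and 13.6%, 22.9% and 27.3% rose. Xrn1, the cytoplasmic exonuclease that degrades decapped messages from the 5′ end, fell by 1.10, 1.07 and 1.56 at the 3 stages. Pnrc2, a decapping cofactor, was higher by 1.10 at GV and 2.15 at GV3h. At MII Lsm3 (1.67) and Lsm7 (1.42), subunits of the Lsm ring, rose.

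Of 28 tested genes of cytoplasmic polyadenylation and translation activation, 9 fell and 0 rose in Dis3 cKO at GV, beside 8.33% and 13.6% of all genes. At GV3h 11 fell and 2 rose, beside 15.7% and 22.9%. At MII 5 fell, near the 14.8% of all genes, and 2 rose, beside 27.3%. Their medians were -0.19, -0.23 and -0.06. Examples at GV were the scaffold Eif4g3 (-0.67 ± 0.13), the poly(A)-binding protein gene Pabpc4 (-0.53 ± 0.11) and Fip1l1 of the cleavage and polyadenylation complex (-0.38 ± 0.09). At GV3h Aurka, a kinase upstream of CPEB1 phosphorylation, fell by 0.62, and Tent2, the cytoplasmic poly(A) polymerase, by 0.58. In adult RiboMinus libraries 10 of 27 fell and 1 rose, beside 12.4% and 15.7% of all genes, with the oocyte poly(A)-binding protein gene Pabpc1l at -0.55 ± 0.06. In dcKO 15 of 27 fell and 6 rose, beside 27.1% and 26.6% of all genes.

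Of 24 other oocyte RNA-binding regulators, 4 rose and 2 fell in Dis3 cKO at GV, beside 13.6% and 8.33% of all genes. At GV3h 8 rose and 4 fell, beside 22.9% and 15.7%, and at MII 6 rose and 4 fell, beside 27.3% and 14.8%. Of 25 tested in RiboMinus libraries, 6 rose and 2 fell in adult Dis3 cKO, beside 15.7% and 12.4% of all genes, and 9 rose and 12 fell in dcKO, beside 26.6% and 27.1%. The GV and MII counts lie close to the shares of all genes, and the dcKO count of lower genes lies above its share. Messages known as dormant in GV oocytes and translated during maturation, the clients of the storage genes, rose in poly(A) libraries from GV to MII in 19 of 22 cases in controls and 20 of 22 in Dis3 cKO, and none fell in either (medians 0.99 and 1.00), where 22.7% and 24.8% of all genes rose. With ERCC scaling 58 of 17389 genes rose and 15217 fell in controls, and 227 and 14311 in mutants. The all-gene median then moved from -0.27 to -2.12 in controls and from -0.26 to -1.505 in mutants. The 22 messages were not counted with that scaling, so their rises hold under TMM scaling only. A longer tail and a larger amount cannot be told apart in these poly(A) values. Of these 22, Dcp1a and Dcp2 are also on the decapping list. Btg4, an adaptor of the CCR4-NOT deadenylase, rose by 1.69 ± 0.11 in controls and 1.62 ± 0.08 in mutants on the log2 scale, under TMM scaling. In Dis3 cKO against control 4 of these 22 fell at GV and 12 at GV3h, and 0 rose at either stage, beside 8.33% and 15.7% of all genes that fell. Fbxo43, the inhibitor that holds the MII arrest, fell by 0.65, Cnot7 by 0.81 and Racgap1 by 0.84 at GV3h. At MII 4 fell and 3 rose, beside 14.8% and 27.3% of all genes, with Cdc20 0.88 higher. The lower count lies near its share and the higher count below it. In dcKO 13 fell and 2 rose, beside 27.1% and 26.6% of all genes, and in adult against p20 controls 11 rose and 0 fell, beside 8.69% and 10.4%. These 11 rises are under TMM scaling, relative to the TMM-adjusted library size. Between these ages 72 of 17267 genes rose and 14797 fell with ERCC scaling, and 99 of 22815 rose and 138 fell with counts summed per tag. In adult RiboMinus oocytes of Dis3 cKO 3 rose and 3 fell, close to the 15.7% and 12.4% of all genes.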

How the data were processed

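Per the submitters' processing notes, the tools cutadapt 2.5, FastQC 0.11.8, STAR 2.7.2a, SAMtools 1.9, HTSeq 0.9.1, DESeq2 1.24.0, R 3.5.1 and SEACR and the build mm10 were used, with no role or order given. The deposited counts are the authors' whole-number reads per gene and per ERCC spike-in, 1 column per oocyte, with 0 sample columns left out and 0 rows that name no gene. The deposited peak lists give the authors' total signal per peak for each library separately. IgG samples were not analysed here.

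Counts were tested with edgeR 4.0.16 in R 4.3.3 (TMM, filterByExpr, quasi-likelihood F test, Benjamini-Hochberg, 0.05). One fit held the 6 poly(A) groups, others the adult pair, the 4 p20 groups and all 6 RiboMinus groups. The SE of a change was taken as its size over the root of its F value. Alternatives were DESeq2 1.42.0, its size factors, ERCC scaling, no filter, narrower fits, title-number blocks, tag sums and left-out libraries. Leaving out GV3h Dis3 cKO oocyte 15 was chosen after seeing the data. Symbols and starts came from RefSeq GRCm38.p6. The fit was tested on simulated counts, where it recovered 20% to 36% of 1.5-fold changes and 42% to 62% of 2-fold changes, depending on the comparison. A gene that did not pass may thus still differ. The changed genes, 100 at each fold, were drawn at random from all genes fitted, so these rates are not those of the members. The members, gene lists and tests were chosen with earlier results of these data known. Named genes are all 10 members, the 2 genes most like each, and up to 3 per list with the smallest adjusted p.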

Additional observations from a re-analysis of the deposited data

Results flagged for a closer look

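Of the values, 7 stood further from the rest of their group of 8 than Dixon's 95% limit of 0.526 allows, of 108 groups tested, and chance alone flags about 1 in 20 groups. In GV3h control oocyte 1, Zar1 was low at 625.9 CPM (906.2 to 1075 in the other 7) and Ybx2 high at 29.3 CPM (20.4 to 24.5). In GV control oocyte 1, Dazl was high at 1250.0 CPM (515 to 790.5 in the others) and Exosc10 low at 49.1 CPM (97.8 to 121). In p20 libraries, Zar1l stood at 185.7 CPM in 1 Exosc10 cKO oocyte (94.6 to 120.5), Ddx6 at 214.8 CPM in 1 Dis3 cKO oocyte (117.5 to 159), and Dis3 at 4.12 CPM in 1 Dis3 cKO oocyte (1.31 to 2.37).

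For 4 members the Dis3 cKO difference from control was not the same at each stage or age, by an interaction test in edgeR with Benjamini-Hochberg adjustment. Between GV3h and GV the difference was 1.64 for Ddx6 (12 of 16 GV3h mutants above all controls) and 0.99 for Patl2 (15 of 16 above), 2 of 10 members beside 2.04% of all genes. Between MII and GV it was 0.67 for Cpeb1 and -0.68 for Dazl, with all 15 GV mutants below the controls for Cpeb1, 2 of 10 members beside 13.2% of all genes. Between adult and p20 RiboMinus oocytes it was -0.50 for Cpeb1 and 0.54 for Dazl, 2 of 10 members beside 9.32% of all genes. The last 2 counts are not far from the shares of all genes. With ERCC scaling the Dazl value between MII and GV was -0.02 (edgeR adjusted p = 0.968) and the Patl2 value had an edgeR adjusted p of 0.0654. Neither GV3h interaction passed with the title number as a replicate block over numbers 1 to 8. Both adult interactions lost their call with ERCC scaling (edgeR adjusted p = 0.166 and 0.610) and with counts summed per tag (0.399 and 0.502). The cause of these differences was not tested.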

How the results depend on the processing

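Of 1330 member results under alternatives, 1204 kept their side of the threshold without reversal (64 of them, called in neither fit, changed sign), 77 lost and 35 gained a call, and 14 reversed. Counts of changed members stayed within 1.5 times in 108 of 133 cases, and 65 of 78 calls held under each alternative other than ERCC scaling and tag sums. All 14 reversals came with ERCC scaling: in Dis3 cKO at MII Zar1 0.034 and Eif4enif1 0.18; in control MII against GV Lsm14b -1.37, Eif4enif1 -1.27 and Dazl -0.19; in Dis3 cKO GV3h against GV Lsm14b 0.10; in Dis3 cKO MII against GV Lsm14b -1.14, Eif4enif1 -0.60 and Dazl -0.21; in adult Dis3 cKO Zar1l -0.45 and Dazl -0.016; in adult against p20 controls Zar1l -1.501, Lsm14b -1.57 and Eif4e1b -1.51. The scaling gave 4 changed members at GV3h (7 with TMM), 3 at MII (5), 0 in control GV3h against GV (1, and 1 at an unadjusted p under 0.05 in edgeR), 5 in Dis3 cKO GV3h against GV (2), 1 and 5 for the interactions at GV3h and MII (2 each), 8 in adult Dis3 cKO (5), 0 in Exosc10 cKO (4), 3 in dcKO (7), 1 in dcKO against Exosc10 cKO (5), 10 in adult against p20 controls (4) and 0 for the adult interaction (2, and 1 at an unadjusted p under 0.05). A fit of only the groups compared gave 10 at GV3h (7), 3 at MII, 2 in control GV3h against GV and 1 for the MII interaction. In these fits 4631 of 15580 genes rose and 3882 fell at GV3h, and 2473 of 14166 rose and 1863 fell at MII. In control GV3h against GV 1056 of 13785 rose and 1027 fell, and for the MII interaction 954 of 16367 were higher and 449 lower. Counts summed per tag gave 0 in adult Dis3 cKO (5 at an unadjusted p under 0.05), 1 each in p20 Dis3 cKO, Exosc10 cKO and adult against p20 controls, and 0 for the adult interaction (3 at an unadjusted p under 0.05). Title numbers 1 to 8 alone gave 2 at MII and 1 for the GV3h interaction, and leaving out GV3h Dis3 cKO oocyte 15 gave 1 for that interaction. With the start site alone in place of the 1 kb window, 1 pair of member and group, not 2, had H3K27me3 peaks in all 3 lists. The pair lost was Cpeb1 in adult controls. The cause was not tested.

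Title numbers were not taken as pairs, since in 0 of 21 pairs of groups was every correlation of same-numbered oocytes over 0.1. That rule is strict and cannot show that same-numbered oocytes shared no handling. Mean correlations ran from -0.05 to 0.11. The highest, of p20 dcKO with Exosc10 cKO, stood beside -0.015 for oocytes of unlike number. The lowest, of p20 control with Dis3 cKO, stood beside 0.009. The poly(A) fit with the title number as a replicate block also lacks mutant oocytes beyond number 8, so it is read against numbers 1 to 8 alone: 3 members, not 2, passed at MII, and 0, not 1, for the GV3h interaction (2 at an unadjusted p under 0.05 in edgeR), where Ddx6 went from 1.28 (edgeR adjusted p = 0.0358) to 1.22 (0.0535). In p20 the replicate block ended only the call of Zar1 in dcKO (-0.25, edgeR adjusted p = 0.0597). An effect of depth on single members was not tested.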
